A study of Mus musculus with 8 samples.

Results

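The list of PU.1 binding sites from the library titled Day 12- 12 was set against the list from untreated cells, titled Day 0. PU.1 is a transcription factor, and its sites were mapped by sequencing immunoprecipitated chromatin (ChIP-seq) from AML246, a mouse acute myeloid leukaemia line grown with the cytokine IL-3. The pair made up 2 of the 7 libraries with a file among 8 labelled samples, and every summit of both lists was used. Day 12- 12 held 148415 summits and Day 0 held 8043, of 365360 in the 7 lists. A summit is the called centre of a peak. 2 summits from different lists were counted as a shared site when they lay within 100 bp of each other, and a gene was counted with a site when at least 1 summit fell between its ends or up to 10 kb beyond them.

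In this model doxycycline (Dox) restores PU.1. Per the labels, Dox was given at 0.1 ug/mL from day 0 of the course and taken away on day 12. Day 12- 12 cells had been given Dox and then taken off it, for 8 days by the treatment label, whereas the title reads as 12 days. Day 0 cells had been given none. Both were sorted as viable cells with no marker gate, so both libraries came from cells without Dox at harvest and differ by label in earlier exposure and in days in culture. The labels do not describe the construct or say whether the line is a single clone, and PU.1 protein was not measured in these files. Lists of summits hold no expression values, so the labelled cell type could not be checked.

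PU.1, encoded by Spi1, belongs to the ETS family of transcription factors, which bind DNA around a purine-rich GGAA core. It is needed for macrophages, granulocytes and B cells to form, and lowered PU.1 activity can block myeloid maturation and favour leukaemia. In macrophages and B cells it binds enhancers far from start sites together with partner factors, while many other ETS factors bind mainly near start sites.

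Each group was 1 library, so the spread between replicates is unknown and nothing was tested. Scores are the authors' own, one per summit, and equal −log10 of the q-value of the peak. They depend on the depth and control of each library, which are not given in the sources used here. A score is used to describe or rank sites within its list, and a site with no call is not a site without binding. The Day 12- 12 list had 18.5 times the sites of Day 0, and 5.92 times among scores of at least 20 (7615 and 1286 sites). Its median score was 6.34, against 9.48 in Day 0, and its highest score was 796, against 490. Comparisons are therefore given for the full lists, for scores of at least 20 in both lists, and for lists of equal length, made of the 8043 highest scores of each. The equal-length Day 12- 12 list ended at a score of 19.4, while the Day 0 list kept all its sites.

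The sequences at which the lists agreed and differed were read in promoter windows. RefSeq windows (GRCm38.p6, the assembly of mm10 coordinates) run from 250 bases before to 50 bases after a start site, on the strand of the gene. Of 21238 windows of 17469 genes, 3913 (18.4%) held a Day 12- 12 summit and 1591 (7.49%) held a Day 0 summit. They were sorted into 2809 windows with a Day 12- 12 summit and no Day 0 summit within 500 bp, 566 with a shared summit, and 769 with a Day 0 summit and no Day 12- 12 summit within 500 bp. A further 673 lay in between, and 16421 held no summit of either list. High-scoring windows of each kind are printed 5′ to 3′ to show what the summits sit on. Capitals mark 2 motifs of 6 letters, on either strand. The first is the ETS core, GGAAGT. The second, GAGGAA, carries the flank that PU.1 favours, and the motifs can overlap.

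The first 3 windows had a summit in Day 12- 12 alone. At Prdx5, which encodes a peroxide-reducing enzyme, the summit scored 386 and fell on base 238 of the window (chr19:6910057-6910356, minus strand), 2 bases from the centre of a GGAAGT match. At Ccdc88b, which encodes a scaffold protein of immune cells, it scored 353 at base 238 (chr19:6858162-6858461, minus strand), 20 bases from the nearest match. At Tssc4, a gene of an imprinted region, it scored 347 at base 9 (chr7:143069118-143069417, plus strand), 4 bases from the nearest match. The nearest Day 0 summits lay 11624, 17583 and 16146 bp away, in the same order.
Prdx5: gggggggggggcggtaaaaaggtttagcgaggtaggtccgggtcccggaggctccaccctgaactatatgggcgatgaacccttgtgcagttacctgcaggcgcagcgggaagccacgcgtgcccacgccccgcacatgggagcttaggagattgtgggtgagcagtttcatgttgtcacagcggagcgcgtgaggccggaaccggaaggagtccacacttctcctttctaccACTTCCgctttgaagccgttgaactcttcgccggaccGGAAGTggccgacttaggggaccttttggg
Ccdc88b: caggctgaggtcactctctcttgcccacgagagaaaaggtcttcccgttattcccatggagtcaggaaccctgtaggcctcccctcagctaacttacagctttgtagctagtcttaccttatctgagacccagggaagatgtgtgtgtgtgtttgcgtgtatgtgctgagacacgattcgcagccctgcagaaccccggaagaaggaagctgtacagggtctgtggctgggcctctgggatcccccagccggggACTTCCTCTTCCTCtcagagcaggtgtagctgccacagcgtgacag
Tssc4: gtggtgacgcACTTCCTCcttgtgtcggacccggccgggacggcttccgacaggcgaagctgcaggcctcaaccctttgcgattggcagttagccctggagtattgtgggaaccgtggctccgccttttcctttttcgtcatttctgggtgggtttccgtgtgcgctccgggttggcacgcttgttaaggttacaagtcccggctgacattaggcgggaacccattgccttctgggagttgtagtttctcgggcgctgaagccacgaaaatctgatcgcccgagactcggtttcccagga

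The next 3 windows had a shared summit. At Pisd, which encodes phosphatidylserine decarboxylase of mitochondria, the summits scored 771 in Day 12- 12 and 61.4 in Day 0, 1 bp apart (chr5:32746293-32746592, minus strand). At Fgd2, an activator of the GTPase Cdc42 in myeloid and B cells, they scored 740 and 96.7, also 1 bp apart (chr17:29360664-29360963, plus strand). At Laptm5, a lysosomal membrane protein of blood cells, they scored 583 and 33.1, 17 bp apart (chr4:130913066-130913365, plus strand). The Day 12- 12 summits lay 6, 2 and 12 bases from the nearest match, in the same order, and in each of the 3 windows GAGGAA lies on the other strand, just after a run rich in A.
Pisd: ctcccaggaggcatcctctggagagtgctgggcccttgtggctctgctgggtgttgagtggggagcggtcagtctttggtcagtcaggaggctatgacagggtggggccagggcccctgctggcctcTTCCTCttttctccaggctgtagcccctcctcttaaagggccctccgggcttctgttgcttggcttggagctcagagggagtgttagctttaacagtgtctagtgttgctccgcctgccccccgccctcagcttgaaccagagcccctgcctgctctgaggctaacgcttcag
Fgd2: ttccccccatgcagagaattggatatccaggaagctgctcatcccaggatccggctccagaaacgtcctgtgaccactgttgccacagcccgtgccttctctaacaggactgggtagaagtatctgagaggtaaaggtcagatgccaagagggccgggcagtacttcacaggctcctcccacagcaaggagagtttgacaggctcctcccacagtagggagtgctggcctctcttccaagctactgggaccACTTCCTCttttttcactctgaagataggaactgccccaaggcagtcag
Laptm5: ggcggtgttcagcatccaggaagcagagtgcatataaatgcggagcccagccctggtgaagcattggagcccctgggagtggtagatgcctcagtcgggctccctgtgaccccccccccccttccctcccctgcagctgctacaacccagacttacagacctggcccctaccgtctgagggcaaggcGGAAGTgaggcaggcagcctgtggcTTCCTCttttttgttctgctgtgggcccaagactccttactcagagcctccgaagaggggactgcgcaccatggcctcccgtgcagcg

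The last 3 windows had a summit in Day 0 alone. At Elf2, an ETS-family gene, it scored 105 at base 226 (chr3:51277465-51277764, minus strand), 6 bases from the centre of a GGAAGT match, 1394 bp from the closest summit of Day 12- 12. At Lpgat1, a lipid acyltransferase gene, it scored 41.9 at base 225 (chr1:191717774-191718073, plus strand), 18 bases from a GAGGAA match. At Yes1, a Src-family kinase gene, it scored 39.1 at base 150 (chr5:32610921-32611220, plus strand), in a window with neither motif. The nearest Day 12- 12 summits to the Lpgat1 and Yes1 summits lay 6838 and 10342 bp away.
Elf2: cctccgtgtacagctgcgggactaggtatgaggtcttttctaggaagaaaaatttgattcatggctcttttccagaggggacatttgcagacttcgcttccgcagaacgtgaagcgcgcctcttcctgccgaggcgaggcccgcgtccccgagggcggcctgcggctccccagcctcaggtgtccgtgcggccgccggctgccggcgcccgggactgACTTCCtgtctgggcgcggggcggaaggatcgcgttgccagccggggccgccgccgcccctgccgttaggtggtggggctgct
Lpgat1: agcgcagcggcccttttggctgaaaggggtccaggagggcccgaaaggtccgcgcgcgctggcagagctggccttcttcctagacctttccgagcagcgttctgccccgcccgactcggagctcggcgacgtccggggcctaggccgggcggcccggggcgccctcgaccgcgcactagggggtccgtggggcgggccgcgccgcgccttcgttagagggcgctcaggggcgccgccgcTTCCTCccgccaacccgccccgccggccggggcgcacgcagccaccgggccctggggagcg
Yes1: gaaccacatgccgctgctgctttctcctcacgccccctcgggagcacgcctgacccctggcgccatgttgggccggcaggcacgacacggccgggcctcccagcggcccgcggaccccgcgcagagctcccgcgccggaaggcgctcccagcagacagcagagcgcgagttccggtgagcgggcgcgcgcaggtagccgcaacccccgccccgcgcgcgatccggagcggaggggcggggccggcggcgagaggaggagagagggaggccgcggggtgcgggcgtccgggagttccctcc

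Across all windows the ETS core GGAAGT was present in 42.7% of those with a Day 12- 12 summit alone (exact 95% interval 40.9 to 44.6, 1200 of 2809). It was present in 67.8% of those with a shared summit (63.8 to 71.7, 384 of 566) and in 15.2% of those with a Day 0 summit alone (117 of 769). Among windows with no summit the share was 19.6%, and among all 21238 windows it was 24.8%. The windows with a Day 0 summit alone thus held the ETS core less often than windows without any summit, while the other 2 classes held it more often. These intervals, like all others given, cover counting error only.

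In the full lists the GAGGAA core followed the same order, in 31.6%, 46.6% and 21.2% of windows with a Day 12- 12 summit alone, a shared summit and a Day 0 summit alone. It was in 25.9% of windows with no summit and 27.4% of all windows. The longer GAGGAAGT, which contains both cores, was in 5.30% of windows with a Day 12- 12 summit alone, 15.4% with a shared summit, 0.390% with a Day 0 summit alone (3 of 769) and 3.13% of all windows. CCGGAAGT, the form favoured by many other ETS factors, was in 13.3%, 15.0% and 3.77% of the same 3 classes and in 5.15% of all windows. The shares of CCGGAAGT in windows with a Day 12- 12 summit alone and with a shared summit had overlapping intervals, whereas those of GAGGAAGT did not. Among summits scoring at least 20, CCGGAAGT was in 20.4% of windows with a Day 12- 12 summit alone (17.8 to 23.1) and 13.0% with a shared summit (9.31 to 17.4), and GAGGAAGT was in 9.12% and 22.1%.

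The classes also differed in base composition. The median GC content was 58.3% for windows with a Day 12- 12 summit alone, 68.7% with a shared summit, 72.7% with a Day 0 summit alone and 53.7% with no summit. The GC box GGGCGG, a site of Sp and Klf factors, was in 55.1%, 85.9% and 88.7% of the 3 classes, 39.9% of windows with no summit and 46.2% of all windows. The CCAAT box, a site of the NF-Y factor spelled CCAAT, ran the other way, in 41.3%, 28.6% and 20.8% of the 3 classes and 38.2% of all windows. Within windows of 65 to 75% GC the ETS core was in 42.4% with a Day 12- 12 summit alone, 66.0% with a shared summit, 17.4% with a Day 0 summit alone and 11.9% with no summit. In those windows the GC box was in 85.4%, 91.4%, 86.6% and 85.5%. The order of the 3 classes by ETS core was thus the same within this GC range, but windows with a Day 0 summit alone there held it more often than those with no summit (14.0 to 21.2 against 10.7 to 13.2). GC content was not fully matched within the range, with medians of 66.3%, 69.7%, 71.0% and 68.7% in the same order. Within windows of 55 to 65% GC the ETS core was in 40.8%, 73.6% and 19.3% of the 3 classes (10.0 to 31.9 for the 57 windows with a Day 0 summit alone) and 18.9% with no summit. There the GC box was in 56.7%, 71.2% and 84.2% of the 3 classes and 59.3% with no summit, so its shares lay close together only in the windows of higher GC content. Among summits scoring at least 20 the ETS core was in 63.6% of 932 windows with a Day 12- 12 summit alone, 73.7% of 285 with a shared summit and 21.2% of 33 with a Day 0 summit alone (8.98 to 38.9). The GAGGAA core did not keep its order at that score, with 373 of 932, 148 of 285 and 14 of 33 (25.5 to 60.8%).

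**Figure D1:**
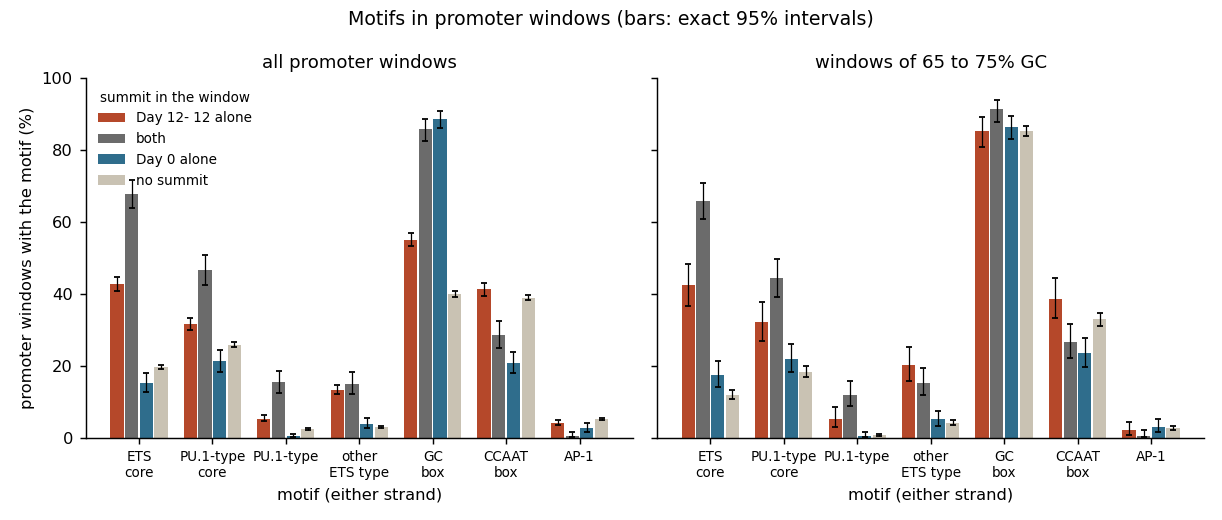
Share of RefSeq promoter windows with each motif (y axis, percent), with the PU.1-type core, the PU.1-type motif and the other ETS type as spelled out in the text, for windows with a Day 12- 12 summit alone, a shared summit, a Day 0 summit alone or no summit, with exact 95% intervals. The ETS core stands at 42.7%, 67.8%, 15.2% and 19.6% on the left, and keeps the order of the first 3 classes among windows of 65 to 75% GC on the right.

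Few sites of the long list were in the short one, and a larger share of the short list was in the long one. Shared sites numbered 1784, which was 1.20% of Day 12- 12 sites (1.15 to 1.26) and 22.2% of Day 0 sites (21.3 to 23.1). The number shared cannot exceed 8043, so the first share is bounded by list length. With a minimum score of 20 the shared sites numbered 682, which was 8.96% of Day 12- 12 sites and 53.0% of Day 0 sites (50.3 to 55.8). In the equal-length lists 1194 sites were shared, 14.8% of each list.

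Sharing climbed with score in both lists. Of Day 12- 12 sites, 0.190% of those scoring below 5, 8.54% of those from 20 to 50 and 40.3% of those of 100 or more (37.5 to 43.1) had a Day 0 summit within 100 bp. Of Day 0 sites, 6.06% of those below 5, 63.4% of those from 20 to 50 and 93.3% of those of 100 or more (88.4 to 96.6, 154 of 165) had a Day 12- 12 summit. Nearly all of the highest-scoring sites of untreated cells were therefore called again in Day 12- 12, while 40.3% of the 1224 Day 12- 12 sites of 100 or more had a call in untreated cells. The sites at the very top of the Day 12- 12 list, with scores above 505, all had a Day 0 summit within 500 bp.

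**Figure D2:**
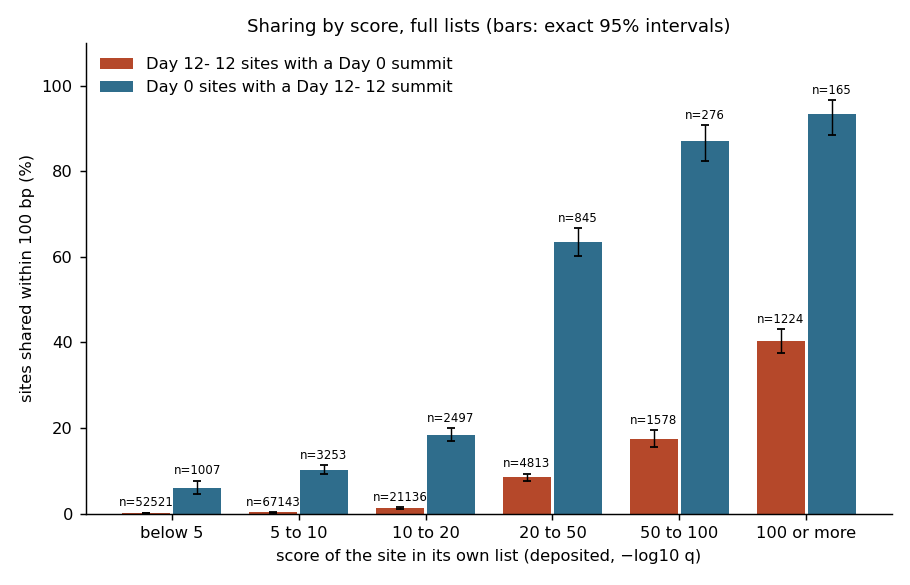
Share of Day 12- 12 sites with a Day 0 summit within 100 bp, and of Day 0 sites with a Day 12- 12 summit (y axis, percent), by the deposited score of the site in its own list (x axis, −log10 q); whiskers are exact 95% intervals and n is the number of sites. Day 0 sites of 100 or more were shared in 93.3% of cases and Day 12- 12 sites of 100 or more in 40.3%.

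Shared summits lay close together, with a median offset of 28 bp and 68.7% within 50 bp. Their median score was 37.3 in Day 12- 12 and 21.3 in Day 0, against 6.34 and 8.49 for sites that were not shared. Across the 1784 shared sites the scores were weakly related (Spearman rho 0.20, Pearson r of log10 scores 0.25, given as a description across sites that share 2 libraries). Of the Day 0 sites, 33.5% had a Day 12- 12 summit within 500 bp and 21.5% had none within 10 kb.

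The 3 kinds of site lay differently relative to genes. Of sites in Day 12- 12 alone, 9.76% (9.61 to 9.91) lay within 1 kb of either end of a gene that codes for protein, against 58.2% of shared sites (55.8 to 60.5) and 62.9% of sites in Day 0 alone (61.7 to 64.1). With start sites only, the shares were 7.29%, 56.9% and 58.6%. With a minimum score of 20 they were 31.6%, 68.4% and 66.8% by gene ends, and in the equal-length lists 30.5%, 55.5% and 63.0%. Shared sites and Day 0 sites thus lay mostly at gene ends in all 3 comparisons, and sites in Day 12- 12 alone mostly did not.

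Score and position moved together in Day 12- 12. Its gene-end share was 8.11% below a score of 5 and 44.6% at 100 or more, while that of Day 0 lay between 59.8% and 71.3% in every score range. Even at scores of 100 or more the Day 12- 12 share (41.8 to 47.5) was below that of Day 0 (68.3%, 60.6 to 75.3). That range held 1224 and 165 sites, and a score of 100 need not mark the same level in both libraries.

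**Figure D3:**
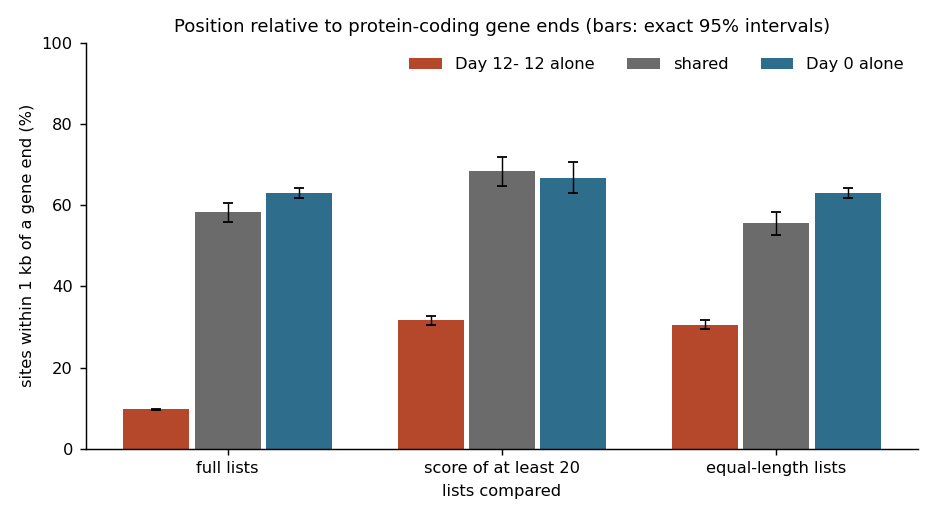
Percent of sites no more than 1 kb from a gene end (y axis; protein-coding genes, both ends) for sites in Day 12- 12 alone, shared sites and sites in Day 0 alone, in the full lists, at scores of at least 20 and in equal-length lists; whiskers are exact 95% intervals. Sites in Day 12- 12 alone stand at 9.76%, 31.6% and 30.5%, below the other classes in all 3.

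The other 5 libraries called the 3 kinds of site to different extents. Here a site was counted when any summit of the other library lay within 100 bp, whatever its score. Of the 146631 sites in Day 12- 12 alone, 69.9% were called in none of the 5, and of the 6259 in Day 0 alone, 51.4% were called in none. Of the 1784 shared sites 10 (0.561%) were called in none and 37.6% were called in all 5. The library called most often for sites in Day 12- 12 alone was Day 12, the end of Dox treatment, at 26.4%, against 8.66% for Day 8 and 2.97% for Day 12- 8. For sites in Day 0 alone it was Day 12- 8, labelled as 4 days off Dox, at 38.7%, against 17.3% for Day 12 and 2.22% for Day 4. The lists of these libraries differ in length, from 9868 sites in Day 12- 4, labelled as Cd11b-high cells after 12 days of Dox, to 86271 in Day 12, which bounds these shares.

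At scores of at least 20 in the pair, 89.9% of the 6933 sites in Day 12- 12 alone were called in Day 12, 81.4% in Day 8, 80.3% in Day 4 and 21.7% in Day 12- 8. Of the 604 sites in Day 0 alone at that score, 77.0% were called in Day 12- 8, 79.0% in Day 8, 60.8% in Day 12 and 14.9% in Day 4. Of those 604, 356 had no Day 12- 12 summit of any score within 100 bp. Of the 6933, 6435 had no Day 0 summit of any score within 100 bp. Sites that scored at least 20 in Day 12- 12 but not in Day 0 were thus mostly sites called at Days 4, 8 and 12 of Dox as well.

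**Figure D4:**
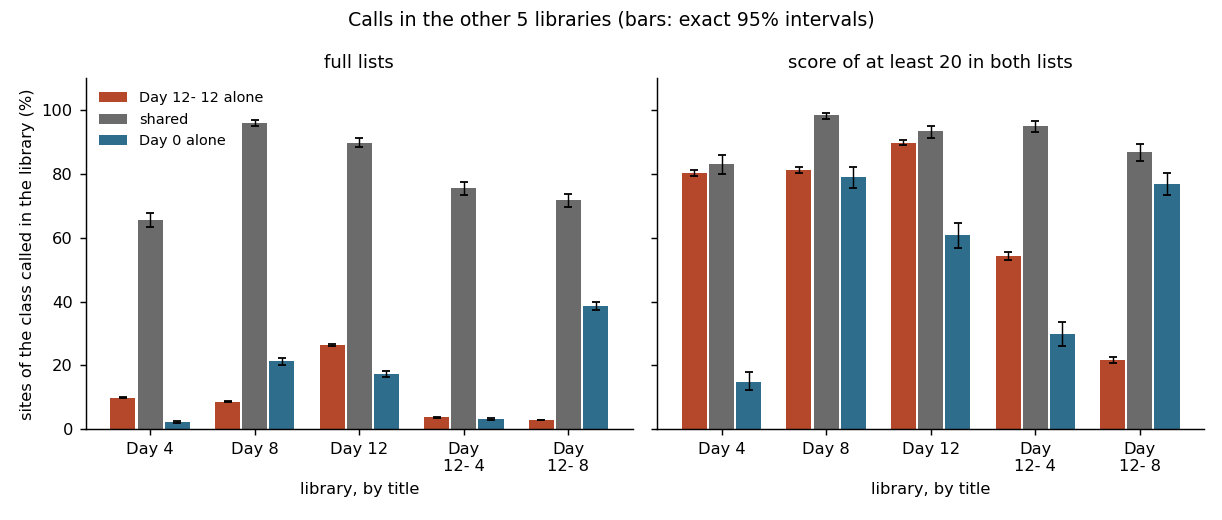
Share of sites in Day 12- 12 alone, shared sites and sites in Day 0 alone (y axis, percent) that had a summit of any score within 100 bp in each of the other 5 libraries (x axis, by title), for the full lists and for sites scoring at least 20; whiskers are exact 95% intervals. At a score of at least 20, sites in Day 12- 12 alone stand at 89.9% in Day 12 and 21.7% in Day 12- 8, and sites in Day 0 alone at 60.8% and 77.0%.

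Single sites of highest score were read in each class. With no Day 0 summit within 500 bp, the 8 Day 12- 12 sites of highest score ran from 401 to 505. The first lay inside Ski, a repressor of TGF-beta signalling, at position 155163398 of chromosome 4. It scored 505 in Day 12- 12, was not called in Day 0, and scored 350, 382 and 835 at Days 4, 8 and 12. Others lay inside Grk6 (460), Prune1 (457), Ttc7 (436), Arid3a (408), a DNA-binding factor of B cells, and Itpr2 (401), a calcium channel of the endoplasmic reticulum, and 8.32 kb outside Sik1 (428), a kinase gene. These named sites were called at Days 4, 8 and 12 and in Day 12- 4, and those other than Grk6 and Sik1 also in Day 12- 8.

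The shared sites with the highest Day 12- 12 scores were led by one inside Rasa3, which encodes a Ras GTPase-activating protein (chromosome 8, 13594991). It scored 796 in Day 12- 12 and 106 in Day 0. The next were the Pisd site printed above, a site at Ptgr2 (758 in Day 12- 12 and 54.0 in Day 0) and the Fgd2 site. A site 1.39 kb outside Cbfa2t3, a co-repressor gene of blood progenitors, scored 713 and 30.1. Among the shared sites with the highest Day 0 scores, that at Slc22a15, a transporter gene (chromosome 3, 101924482), scored 326 in Day 12- 12 and 490 in Day 0. Those at Plekhg1 (340 and 448), Tnfaip3, the A20 inhibitor of NF-kappaB signalling (285 and 446), Itgav, an integrin chain (321 and 411), Lrrk1 (305 and 396) and Tbc1d1 (264 and 393) also scored higher in Day 0. The Prr14l site scored 419 and 425, and the Tsc22d1 site went the other way, with 703 and 416. These sites are the 8 of highest Day 0 score, a choice that favours higher scores in Day 0. 6 of these 8 summits, those at Slc22a15, Tnfaip3, Prr14l, Itgav, Lrrk1 and Tbc1d1, lay within 43 bp of a listed start site.

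Of the Day 0 sites that had no Day 12- 12 summit within 500 bp, the first 8 by score ran from 52.2 to 111. The first (chromosome 17, 39848430) lay 102 kb from Esp38, the nearest protein-coding gene, inside a listed long non-coding RNA gene, AY036118. Sites 282 kb from Pex2 and 137 kb from Rab10 and a site on an unplaced scaffold were also among them. Repeats were not filtered out here. The Elf2 site was also called at Day 4 (20.1) and in Day 12- 8 (77.2). A site inside Zc3h7a, an RNA-binding protein gene (chromosome 16, 11144265), scored 57.2 in Day 0 and was called in no other library. A site inside Cdk8, the kinase of the Mediator complex, scored 52.9 in Day 0 and 88.0 in Day 12- 8.

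At Spi1 itself (chromosome 2), 13 summits of Day 12- 12 and 3 of Day 0 lay within 10 kb of the gene. A site inside the gene, 0.715 kb from its lower end, scored 472 in Day 12- 12 (91083089) and 16.1 in Day 0 (91083086), with the summits 3 bp apart. A site 11.7 kb outside the lower end, beyond the 10 kb window, scored 485 in Day 12- 12 (91070662) and 112 in Day 0 (91070593), 69 bp apart. The highest Day 0 score within the window was instead 53.4, at 91115353 near the upper end of the gene. The nearest Day 12- 12 summit to it lay 205 bp away and scored 5.14. Sites inside the gene that scored 66.0 (91084724) and 51.7 (91096740) in Day 12- 12 had no Day 0 summit within 100 bp. Both libraries thus called the 2 sites of Spi1 that scored highest in Day 12- 12, and differed in the rest.

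By genes, how far the lists agreed depended on the setting. In the full lists 17272 of 21887 protein-coding genes (78.9%) had a site in Day 12- 12 and 8052 (36.8%) in Day 0. Both lists had a site at 7586 genes (34.7%), Day 12- 12 alone at 9686 (44.3%) and Day 0 alone at 466 (2.13%). Most genes called in Day 0 (94.2%) were called in Day 12- 12 too, but of the 7586 genes with both, only 2214 (29.2%) held a site shared within 100 bp. A gene with a site had a median of 5 summits in Day 12- 12 and 1 in Day 0.

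Counting only scores of at least 20, 6590 genes (30.1%) had a site in Day 12- 12 and 1707 (7.80%) in Day 0. Both had one at 1358 genes (6.20%), Day 12- 12 alone at 5232 (23.9%) and Day 0 alone at 349 (1.59%). Of the 1358 genes, 965 (71.1%) held a shared site. In the equal-length lists 47.5% of the genes called in Day 0 were called in Day 12- 12, and the direction turned, with 6789 genes (31.0%) in Day 12- 12 and 8052 (36.8%) in Day 0. Both had one at 3822 (17.5%), Day 12- 12 alone at 2967 (13.6%) and Day 0 alone at 4230 (19.3%). Which list reached more genes thus depended on whether scores or list lengths were matched.

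Gene lists are read against these shares of all genes, and a gene's score is that of its highest-scoring site in the window. Of 48 myeloid maturation genes, whose products include surface receptors, granule enzymes and oxidase subunits of phagocytes, 40 had a site in Day 12- 12 and 13 in Day 0. All 13 were among the 40. With a score of 20 or more the counts were 24 of 48 in Day 12- 12, against 30.1% of all genes, and 3 (6.25%) in Day 0, against 7.80% of all genes. In the equal-length lists they were 25 (52.1%) and 13 (27.1%), against 31.0% and 36.8% of all genes. With genes lacking a site set to 0, the median best score in Day 12- 12 was 20.4 for the list and 10.7 over all genes.

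Csf2rb, the common beta chain of the IL-3, IL-5 and GM-CSF receptors, scored 127 from a site inside the gene and had no Day 0 site. Fcer1g, a signalling adaptor of Fc receptors, likewise scored 127 in Day 12- 12 with no Day 0 site. Cd52 scored 138 from a site 3.79 kb outside the gene that lay nearer to Ubxn11, again with no Day 0 site. Of those with sites in both, Csf2ra, the alpha chain of the GM-CSF receptor, scored 143 in Day 12- 12 and 56.6 in Day 0 at the same site. Laptm5 scored 583 and 33.1 at the promoter site printed above. Tyrobp, the DAP12 adaptor of myeloid receptors, scored 89.0 and 36.5, with the highest-scoring sites of the lists apart and both outside the gene. Its Day 0 site also had a Day 12- 12 summit within 100 bp. Of the receptor chains for GM-CSF, the Day 0 list thus had a call at Csf2ra and none at Csf2rb, which does not show that binding was absent there.

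Genes of myeloid transcription factors were more evenly covered. They had a site in 28 of 30 cases in Day 12- 12 and 20 of 30 in Day 0. At scores of at least 20 the counts were 16 (53.3%) and 5 (16.7%), and in the equal-length lists 17 (56.7%) and 20 (66.7%). Over all genes the shares were 30.1% and 7.80% at that score, and 31.0% and 36.8% at equal length. Fos, an AP-1 subunit, scored 108 in Day 12- 12, Cebpe, a granulocytic factor, 60.2, Irf7, an interferon regulatory factor, 36.3, and Egr3, an early growth response factor, 29.5, none with a Day 0 site. Cebpb, a C/EBP factor of macrophages and granulocytes, scored 12.6 in Day 12- 12 and 51.5 in Day 0 at the same site, 17 bp apart within the gene. Fosl2, an AP-1 subunit, scored 21.1 and 36.0 at sites 100 bp apart. Cebpd, another C/EBP gene, had a Day 0 site alone, scoring 5.07.

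Of 37 genes of stem cells and leukaemia, 35 had a site in Day 12- 12 and 23 in Day 0. At scores of at least 20 the counts were 13 (35.1%) and 5 (13.5%), and in the equal-length lists 14 (37.8%) and 23 (62.2%). Over all genes the shares were 30.1% and 7.80% at that score, and 31.0% and 36.8% at equal length. These genes had a median length of 47.3 kb, against 17.2 kb over all genes, so their windows were wider. Mcl1, a survival gene of the Bcl2 family, scored 146 in Day 12- 12 and 118 in Day 0 at summits 5 bp apart. Etv6, an ETS repressor gene, scored 91.5 and 84.1 at the same site, which lay outside the gene. Cbfb, the partner subunit of Runx factors, scored 217 and 146, at summits 207 bp apart and so not counted as shared. Dnmt3a, a DNA methyltransferase, and Idh2, a metabolic enzyme, both mutated in human leukaemia, scored 74.8 and 74.5 in Day 12- 12 with no Day 0 site. Myb scored 19.7 in Day 12- 12 with no Day 0 site. Lmo2, a co-factor of blood progenitors, had a Day 0 site alone, at 2.65.

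**Figure D5:**
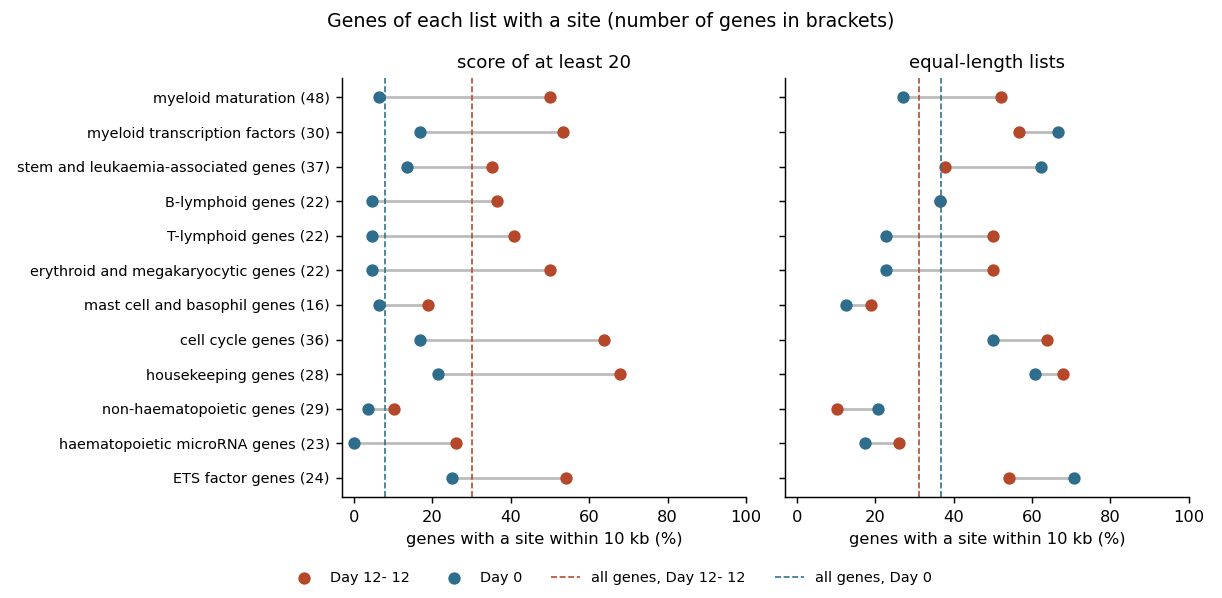
Share of the genes of each list with a site within 10 kb (x axis, percent; number of genes in brackets) in Day 12- 12 and in Day 0, at scores of at least 20 and in equal-length lists; dashed lines give the share of all 21887 protein-coding genes. Cell cycle genes stand at 63.9% in Day 12- 12 and 16.7% in Day 0 at scores of at least 20, and the points of B-lymphoid genes coincide at 36.4% in equal-length lists.

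High shares in Day 12- 12 were found for genes outside the myeloid lists as well. Cell cycle genes had a site scoring at least 20 in 23 of 36 cases in Day 12- 12 (63.9%) and 6 in Day 0 (16.7%). Housekeeping genes had one in 19 of 28 (67.9%) and 6 (21.4%), above the share of myeloid maturation genes in both libraries. Over all genes the shares were 30.1% and 7.80%. Among cell cycle genes, Mcm7, a subunit of the replicative helicase, scored 181 in Day 12- 12 with no Day 0 site. E2f3, a cell cycle transcription factor, scored 42.1 in Day 12- 12 and 103 in Day 0 at summits 12 bp apart. Cdc20, an activator of mitotic exit, scored 210 and 200 at a site that lay nearer to Elovl1. Among housekeeping genes, Gusb scored 480 and 57.8 at the same site, Gapdh scored 96.4 with no Day 0 site, and Hprt had a Day 0 site alone, at 7.04.

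ETS factor genes had a site scoring at least 20 in 13 of 24 cases in Day 12- 12 (54.2%) and 6 in Day 0, the highest Day 0 share of the 12 lists. In the equal-length lists the counts were 13 (54.2%) and 17 (70.8%). Over all genes the shares were 30.1% and 7.80% at a score of at least 20, and 31.0% and 36.8% at equal length. The ETS factor genes had a median length of 31.1 kb, against 17.2 kb over all genes. Elf4 scored 76.2 in Day 12- 12 and 117 in Day 0, and Elf2 scored 127 and 105. For both genes the highest-scoring sites of the lists lay apart. The Day 0 site of Elf4 also had a Day 12- 12 summit within 100 bp, and the Elf2 site of 105 did not. Etv3 scored 79.4 and 85.7 at summits 84 bp apart. Gabpa, which encodes the DNA-binding subunit of GABP, scored 69.6 in Day 12- 12 with no Day 0 site.

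With a score of at least 20, 30.1% of all genes had a site in Day 12- 12 and 7.80% in Day 0. T-lymphoid genes had a site in 9 of 22 cases in Day 12- 12 and 1 in Day 0, erythroid and megakaryocytic genes in 11 of 22 and 1, B-lymphoid genes in 8 of 22 and 1, and mast cell and basophil genes in 3 of 16 and 1. These are counts of genes and not of separate sites. Cd3d and Cd3g took 61.6 from the same Day 12- 12 site, and Vpreb1 and Igll1 took 22.0 from a site nearer to Top3b. Some other genes also drew on a site nearer to a neighbour, such as Cd5 (31.8, nearer to Vps37c). Nfe2, a factor of megakaryocytes and erythroid cells, scored 270 in Day 12- 12, and Vwf, which encodes von Willebrand factor, scored 242, both with no Day 0 site. Cd72, a B-cell receptor inhibitor, scored 394 in Day 12- 12 and 10.7 in Day 0 at the same site. Cd79a, a chain of the B-cell receptor, scored 23.1 in Day 12- 12 and 62.7 in Day 0, from different sites, of which the Day 0 one lay nearer to Arhgef1. That Day 0 site also had a Day 12- 12 summit within 100 bp. Of the 5 erythroid or megakaryocytic genes with a site in both lists none had a shared site, while Notch1 and Ptcra of the T-lymphoid list did. Over all genes with both the share was 29.2%, and 5 genes are too few to set against it. Non-haematopoietic genes had a site scoring at least 20 in 3 of 29 cases in Day 12- 12 (10.3%) and 1 in Day 0 (3.45%). The Day 0 call came from a site 7.29 kb outside Amh that lay nearer to Plekhj1.

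Haematopoietic microRNA genes had a site scoring at least 20 in 6 of 23 cases in Day 12- 12 (26.1%) and in none in Day 0. The shares of all protein-coding genes were 30.1% and 7.80%. Those genes had a median length of 17.2 kb, against 0.08 kb for the microRNA genes. Their windows were thus wider, and the shares are not like for like. Mir142, a microRNA gene of blood cells, scored 144 in Day 12- 12 and 8.49 in Day 0 at summits 30 bp apart, 5.14 kb from the hairpin. Mir23a, Mir24-2 and Mir27a, neighbouring hairpins, all took a score of 320 in Day 12- 12 from the same site, so they are not separate cases. Their Day 0 score was 4.17, at a different site. Mir150, a microRNA of lymphoid cells, scored 150 in Day 12- 12 with no Day 0 site.

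Among larger gene families, cytosolic ribosomal protein genes had a site scoring at least 20 in 53 of 84 cases in Day 12- 12 (63.1%) and 10 in Day 0 (11.9%), and Rab GTPase genes in 40 of 69 (58.0%) and 12 (17.4%). Genes of spliceosomal proteins and splicing factors had one in 20 of 32 (62.5%) and 10 (31.2%). Chemokine and chemokine receptor genes had one in 11 of 54 cases in Day 12- 12 (20.4%) and in none in Day 0. The shares of all genes at that score were 30.1% and 7.80%. The homeobox cluster genes stood apart, with a site at any score in 37 of 39 cases in Day 12- 12 (94.9%) and 24 in Day 0 (61.5%). None of them had a site scoring at least 20 in either library. At any score, 78.9% of all genes had a site in Day 12- 12 and 36.8% in Day 0. Olfactory receptor genes, which blood cells are not known to use, had one in 290 of 1106 cases in Day 12- 12 (26.2%) and 9 in Day 0 (0.814%). At scores of at least 20 the counts were 6 and 1.

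Over the 12 lists, 129 of 329 genes had a site in both libraries in the full lists. Of these, 50 held a site shared within 100 bp, and for 32 the highest-scoring site was the same one in both. Among all protein-coding genes 34.7% had a site in both, and 29.2% of those held a shared site. The lists also include 23 microRNA genes.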

How the data were processed

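Per the labels' protocols, the PU.1 ChIP-seq libraries used a TruSeq preparation and a NextSeq instrument. Each deposited file lists peak summits. MACS2 and the genome build mm10 are named per the submitters' processing notes. The deposited score was read as −log10 of the q-value, because the lowest score in the 7 files was 1.30104 and a q limit of 0.05 corresponds to 1.30103. The aligner, MACS2 version, control, read filters, sequencing depth and whether peaks were called on pooled libraries are not given in the sources used here, so the precision that depth allows is unknown.

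Libraries were grouped by title. Summits were matched to the nearest summit of the other list in Python 3.11.15 (scipy 1.17.1, pandas 2.3.3, numpy 2.4.6), and matplotlib 3.10.9 drew the plots. The matching was tested on simulated positions. Intervals are exact (Clopper-Pearson). Gene positions (21887 protein-coding genes) and promoter sequences came from RefSeq, GRCm38.p6. Sites on unplaced scaffolds and the mitochondrial genome (164 in Day 12- 12 and 89 in Day 0) counted in list totals and were left out of gene comparisons. 33 Day 12- 12 sites tied at the last score of the equal-length list and were kept in order of chromosome and position up to the limit.

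Of 330 genes in 12 lists, 329 matched. The comparison, lists and families were chosen with earlier results of these data known. Named genes were, per list, up to 4 in Day 12- 12 alone by Day 12- 12 score, and up to 3 in both and up to 3 in Day 0 alone by Day 0 score, which tilts the genes named in both to high Day 0 scores. Those that help the description are given. Some items that the rule names are not reported here. Named sites were the 8 highest per class, and named promoters the 3 highest outside chromosome 18. Alternatives were other score minimums, list lengths, distances and gene windows.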

Additional observations from a re-analysis of the deposited data

How the results depend on the processing

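Of 46 alternatives for the main shares and counts, 9 gave like values (a share within the 95% interval of the reported one, a count within 1.5 times) and 37 moved. Genes in Day 12- 12 alone outnumbered those in Day 0 alone in every setting but the equal-length lists. The gene-end share of sites in Day 12- 12 alone was the lowest of the 3 classes in every setting. The order of the other 2 was not constant. Shared sites had the higher share at a score of 20, with sharing within 500 bp and with ends within 500 bp. In each of these settings the 95% intervals of the other 2 classes overlapped, so their order there is not resolved. The share of Day 12- 12 sites shared was 4.04% at scores of at least 10, 8.96% at 20, 14.8% at equal length, 0.825% within 50 bp and 1.84% within 500 bp. That of Day 0 sites was 30.7%, 53.0%, 14.8%, 15.2% and 33.5% in the same settings. The gene-end share of sites in Day 12- 12 alone was 16.8%, 31.6%, 30.5%, 9.97% and 9.35%, and 6.08% for ends within 500 bp. That of shared sites was 62.4%, 68.4%, 55.5%, 54.2%, 63.1% and 51.3%. That of sites in Day 0 alone was 64.6% and 66.8% at scores of at least 10 and 20, 61.2% with sharing within 500 bp and 49.0% for ends within 500 bp. For listed start sites it was 7.29% in Day 12- 12 alone and 58.6% in Day 0 alone. Genes in both lists numbered 3476 at scores of at least 10, 1358 at 20, 3822 at equal length and 4776 by gene body. Genes in Day 12- 12 alone numbered 5232 at 20 and 2967 at equal length. Genes in Day 0 alone numbered 900 at 10, 4230 at equal length and 926 by gene body. The causes were not tested, beyond the smaller number of sites each stricter setting holds. Start sites, and the ETS core at a score of 20 or within ranges of GC content, were added after seeing the data.

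No paired analysis was possible because each group held 1 library, and no library could be left out for the same reason. Depth was unknown, so a missing call cannot be told apart from a site below detection. Title and treatment label name different times for Day 12- 12.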

Other observations

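Day 12- 12 sites were spread unevenly over chromosomes relative to Day 0 sites. Chromosomes 4 and 5 together held 23.0% of Day 12- 12 sites and 15.2% of Day 0 sites, with 11.9% of protein-coding genes. At scores of at least 20 the shares were 20.7% and 17.4%, and in the other 5 libraries they lay between 16.2% and 20.8% of all sites. The ratio of Day 12- 12 to Day 0 sites was 30.4 on chromosome 4, 25.9 on chromosome 5 and 7.03 on the X chromosome, against 18.5 over the whole lists. At scores of at least 20 these ratios were 8.27, 6.15 and 5.36, against 5.92 over all chromosomes, and chromosome 7 had 8.44.

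The AP-1 motif TGACTCA was in 118 of 2809 promoter windows with a Day 12- 12 summit alone, 3 of 566 with a shared summit, 21 of 769 with a Day 0 summit alone and 989 of all 21238 windows. The classes differ in GC content. Within windows of 65 to 75% GC the motif was in 1.99%, 0.557% and 3.08% of the 3 classes and 2.39% of all windows, so the order of the classes was not the same there.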
